A study of Mus musculus with 29 samples.

Results

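The 8 libraries of the middle somites, 4 of SOMB and 4 of SOMC, were set against the 7 libraries of the series ends, 3 of SOMA and 4 of SOMD, and these 15 libraries are part of a series of 29. All hold RNA of C57BL/6 mouse embryos at E9.0 that carry a Dll1-YFP lineage mark. Their tissue was dissociated without culture, and YFP-positive cells, descendants of cells that had used Dll1, a Notch ligand gene of the unsegmented mesoderm, were collected by FACS. SOMB is the tissue of somites 2 to 5 and SOMC that of somites 6 to 9, numbered, as the groups imply, from the newest. SOMA is the unsegmented presomitic mesoderm with the newest somite, and SOMD the oldest somites sampled, from somite 10 on, with a last somite that the labels give as 13, 14, 15 and 16 for replicates 1 to 4. The libraries are bulk samples, so fewer cells of a type and less RNA per cell cannot be told apart. The labels do not say whether replicates come from separate embryos or pools, so that p-values measure the spread between these samples, which may be technical.

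Somites bud off in pairs from the anterior end of the presomitic mesoderm, where FGF and Wnt signals are high and fall as cells are displaced forward. A new somite is an epithelial ball. Under signals from the notochord, neural tube, ectoderm and lateral plate, its ventral part becomes the mesenchymal sclerotome that forms vertebrae and ribs, and its dorsal part the dermomyotome that gives muscle and dermis. Position along the body is recorded in the Hox genes, whose higher numbered groups are used further back. Along the series SOMA to SOMD the tissue thus becomes older and lies further forward, and a gene that is high or low only in the middle follows neither a steady rise nor a steady fall. The contrast was the mean of SOMB and SOMC minus the mean of SOMA and SOMD on the log2 scale, each group with the same weight. A gene is called a peak here when the contrast was positive with an edgeR adjusted p under 0.05 and both middle groups had a mean level above both end groups, and a dip when it was negative and both middle means lay below both end means. Levels are TMM-scaled CPM, read counts made comparable between libraries of unequal depth.

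Gene counts per library ran from 14319991 to 25497288 in SOMB and from 15834045 to 26950283 in SOMC, against 14090592 to 28047218 in SOMA and 11541131 to 27838317 in SOMD. The labelled tissues fit their markers. Msgn1, a factor of presomitic mesoderm, averaged 0.369 ± 0.228 CPM in SOMB and 0.183 ± 0.04996 CPM in SOMC, against 29.6 ± 16.01 CPM in SOMA and 0.105 ± 0.0707 CPM in SOMD. Pax1, a factor of early sclerotome, averaged 60.5 ± 32.03 CPM in SOMB and 61.1 ± 6.62 CPM in SOMC, against 2.24 ± 2.77 CPM in SOMA and 75.1 ± 7.86 CPM in SOMD. SOMC1 and SOMC4 were nearly the same library, as were SOMD1 and SOMD4: over genes, their counts differed with a chi-square of 1.95 and 1.91 per degree of freedom, against 9.24 to 42.3 for the other pairs within a group. They were kept apart, and the counts with each such pair summed are given below, since n may be 3 in SOMC and SOMD. Reads in no feature made up more in 6 libraries (SOMD1, SOMD4, SOMC1, SOMC4, SOMB1, SOMA1), at 12.001 to 12.8%, than in the 9 remaining ones, at 7.57 to 10.7%, a split that each group spans. Means are given ± SD over libraries (n = 4 in SOMB, SOMC and SOMD, n = 3 in SOMA) and differences ± SE on the log2 scale.

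Of 13790 genes tested, 308 were peaks (2.23%) and 265 were dips (1.92%). With the nearly identical libraries summed there were 195 peaks and 162 dips, of which 189 and 159 were among those above. Same-number libraries deviated together within SOMA with SOMB and within SOMC with SOMD. With the number as a block within each of these pairs of groups, a fit chosen after seeing the data and called the paired fit below, 853 genes were peaks (6.19%) and 762 dips (5.53%), among them all 308 peaks and 265 dips; with the nearly identical libraries summed as well, it gave 711 (5.19%) and 606 (4.42%). The contrast alone was past the threshold for 465 genes with a positive and 437 with a negative value, so that 157 and 172 of these had an end group at or beyond a middle mean. The median change was 0.66 (log2) over the peaks and -0.59 over the dips, and 88 peaks and 61 dips differed by at least 2-fold. Over all genes tested the median was 0.00. The shares of 2.23% peaks and 1.92% dips are the background of the list counts below, and 6.19% and 5.53% that of counts in the paired fit. Paired-fit values of genes and lists below keep the nearly identical libraries apart. DESeq2 called 380 peaks and 320 dips over all genes, the background of its list counts. No share over all genes is given for counts at an unadjusted p under 0.05. It is at least 2.23% and 1.92%, so those counts cannot be set against a background here. Genes with the peak shape at any p made up 13.3% of those tested, and genes with the dip shape 13.3%. At the threshold, Cnksr1 lay just inside with an adjusted p of 0.0497 and Amigo2 just outside with 0.0504.

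The contrast can be carried by a single end, so the middle groups were also set against each end alone. Against SOMA, 1029 genes were higher in the middle (7.46%) and 991 lower (7.19%); against SOMD, 416 were higher (3.02%) and 627 lower (4.55%). Of the 308 peaks, 72 passed against both ends (0.522% of all genes), 157 against SOMA only, 69 against SOMD only and 10 against neither. Of the 265 dips, 55 passed against both (0.399%), 151 against SOMA only, 51 against SOMD only and 8 against neither. With the nearly identical libraries summed, 29 peaks and 16 dips passed against both ends. Where a gene below is said to pass against an end, those libraries were kept apart. Whether it also passes with them summed is not reported here for each gene. Every middle library lay beyond every end library for 50 peaks and 29 dips. SOMB and SOMC differed from each other for 4 peaks and 0 dips in the edgeR fit. In a stricter rule, SOMB and SOMC each had to differ from SOMA and from SOMD, with the largest of the 4 p-values adjusted over all genes. It left 2 peaks (0.0145%), Sh3bgr and Krt19, and 0 dips (0%) in edgeR, with 103 peaks and 72 dips at an unadjusted p under 0.05; DESeq2 left 15 peaks and 1 dip.

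**Figure D1:**
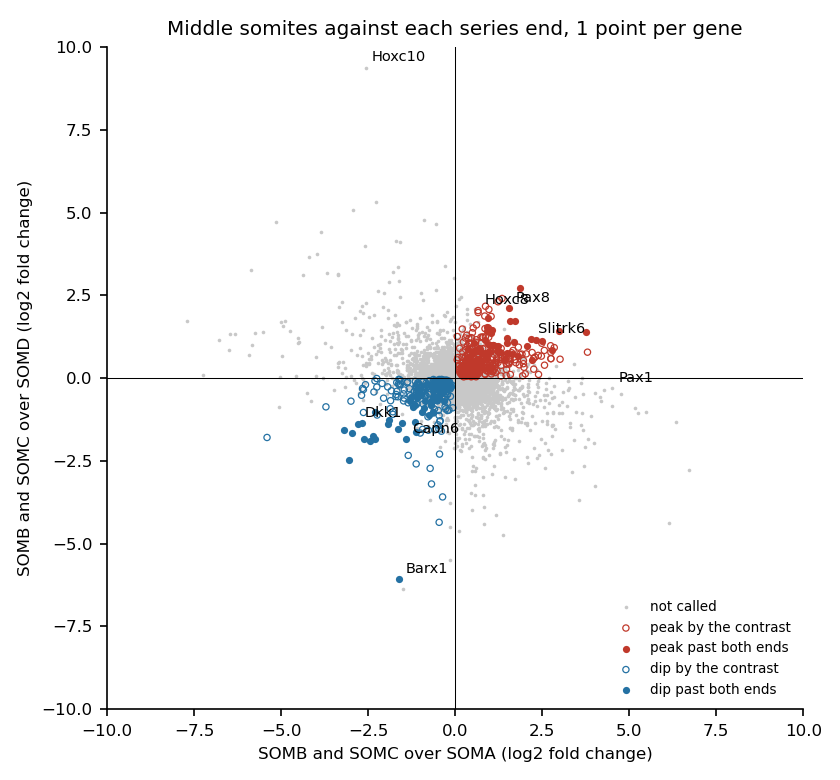
Each point is a gene tested, placed by the log2 fold change of the middle groups (SOMB and SOMC) over SOMA (horizontal) and over SOMD (vertical). Filled red and blue points are the 72 peaks and 55 dips that passed against both ends, open ones the other called genes; Pax1 lies right of the peaks at a SOMD difference near 0, and Barx1 far below the dips.

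Sh3bgr and Krt19 were the 2 peaks of the strict rule. Sh3bgr (chr16:96200470-96228933, GRCm38), an SH3-binding glutamate-rich protein known from heart and skeletal muscle, had 22.7, 26.5, 18.9 and 23.6 CPM in SOMB and 22.7, 22.02, 24.3 and 23.98 CPM in SOMC, against 9.21, 6.89 and 8.38 CPM in SOMA and 8.18, 13.5, 10.7 and 7.802 CPM in SOMD. The lowest middle library stood above the highest end library. The contrast was 1.36 ± 0.11 (log2, SE; edgeR adjusted p = 7.66e-06), and the largest of its 4 single p-values gave 0.00507 after adjustment. Krt19 (chr11:100140810-100145926), a keratin of simple epithelia, had 16.8, 14.6, 17.7 and 16.9 CPM in SOMB and 19.3, 18.2, 15.2 and 17.7 CPM in SOMC, against 8.23, 7.39 and 9.54 CPM in SOMA and 6.47, 7.92, 6.48 and 5.81 CPM in SOMD. The groups did not overlap, and the contrast was 1.19 ± 0.09 (edgeR adjusted p = 3.42e-06; strict adjusted p = 0.00507). Both ends were alike for Krt19, with a middle difference of 1.02 ± 0.12 from SOMA and 1.36 ± 0.11 from SOMD.

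Genes of the kidney-forming intermediate mesoderm, the strip of tissue beside the somites, held the peak with the widest gap to the ends among peaks of at least 5 CPM on average, Pax2. Pax2 and Pax8 are paired-box factors that act together at the start of the nephric lineage. Pax2 (chr19:44746601-44838269) had 7.23, 5.55, 25.6 and 12.3 CPM in SOMB and 12.4, 8.67, 13.6 and 12.2 CPM in SOMC, against 1.89, 5.67 and 3.98 CPM in SOMA and 1.7, 7.49, 3.39 and 2.69 CPM in SOMD. SOMB3 was the highest library, SOMB1 and SOMB2 lay below SOMD2, SOMB2 also lay just below SOMA3, and the SOMC libraries all lay above the ends. Its contrast was 1.71 ± 0.36 (edgeR adjusted p = 0.00811). Pax8 (chr2:24420551-24475599) had 9.61, 6.66, 23.96 and 13.3 CPM in SOMB and 7.79, 6.58, 11.3 and 7.42 CPM in SOMC, against 3.33, 4.45 and 3.06 CPM in SOMA and 2.09, 5.17, 1.58 and 1.43 CPM in SOMD. All 8 middle libraries lay above all 7 end libraries, and the contrast was 1.82 ± 0.30 (edgeR adjusted p = 0.00145). Among only the 9 libraries with the lower share of reads in no feature the values were 1.32 for Pax2 (adjusted p = 0.251) and 1.70 for Pax8 (adjusted p = 0.115).

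Of 8 intermediate mesoderm markers tested, Pax2 and Pax8 were peaks (25.0%, against 2.23% of all genes) and none was a dip in edgeR. There were 4 and 0 at an unadjusted p under 0.05, 2 and 0 in DESeq2, and 4 and 0 in the paired fit. The list median was 0.73, and 4 of the 8 had the peak shape at any p: Pax2, Pax8, Lhx1 and Wt1. The remaining members, Osr1 among them, did not have that shape. Osr1, an early factor of this tissue, had 20.2 ± 2.53 CPM in SOMB and 15.6 ± 1.13 CPM in SOMC, against 26.97 ± 2.37 CPM in SOMA and 12.3 ± 4.75 CPM in SOMD. Summed over the list, levels were 188.5 to 394 CPM in SOMB and 213 to 229 CPM in SOMC, against 457 to 539 CPM in SOMA and 103 to 158 CPM in SOMD. The sum thus does not peak in the middle, but Sall1 alone held its largest part. Sall1 had 109 to 244 CPM in SOMB and 116 to 141 CPM in SOMC, against 354 to 397 CPM in SOMA and 54.8 to 85.2 CPM in SOMD. The sum therefore does not describe the list as a set. The defining factors Lhx1 and Wt1 were above 0 in every group and had the peak shape, but were not called in edgeR. Lhx1 had 14.6 ± 11.5 CPM in SOMB and 12.3 ± 3.298 CPM in SOMC, against 7.91 ± 3.66 CPM in SOMA and 6.98 ± 4.24 CPM in SOMD. Wt1 had 23.9 ± 5.99 CPM in SOMB and 20.99 ± 7.53 CPM in SOMC, against 13.3 ± 6.82 CPM in SOMA and 15.9 ± 4.36 CPM in SOMD. How far admixed cells of this strip contribute to Pax2 and Pax8 was not tested.

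The lateral plate, which lies further out, gave 1 peak and 2 dips of 10 markers tested (3 and 3 in the paired fit). Hand1, a bHLH factor of lateral plate and heart, had 48.7, 25.1, 45.2 and 49.9 CPM in SOMB and 84.5, 52.2, 54.2 and 86.01 CPM in SOMC, against 23.8, 34.7 and 23.1 CPM in SOMA and 30.3, 28.2, 21.8 and 28.6 CPM in SOMD. Its contrast was 0.99 ± 0.16 (edgeR adjusted p = 0.00144), past the threshold against SOMA (0.999 ± 0.22) and against SOMD (0.99 ± 0.20); SOMB2 lay inside the range of the ends. Isl1, a factor of heart progenitors and hindlimb field, was a dip by its SOMA level, with 14.6 ± 11.2 CPM in SOMB and 8.15 ± 3.24 CPM in SOMC, against 55.8 ± 28.1 CPM in SOMA and 14.6 ± 5.63 CPM in SOMD. Prrx1, a homeobox factor of limb and trunk mesenchyme, was a dip by its SOMD level, with 109.5 ± 21.4 CPM in SOMB and 139 ± 8.02 CPM in SOMC, against 151 ± 57.3 CPM in SOMA and 225 ± 54.5 CPM in SOMD. Neither passed against the other end, and both lost the call when the nearly identical libraries were summed. The summed level of the lateral plate list was 198 to 357 CPM in SOMB and 339 to 440 CPM in SOMC, against 266 to 469 CPM in SOMA and 374 to 505 CPM in SOMD, and its part in these results was not tested.

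**Figure D2:**
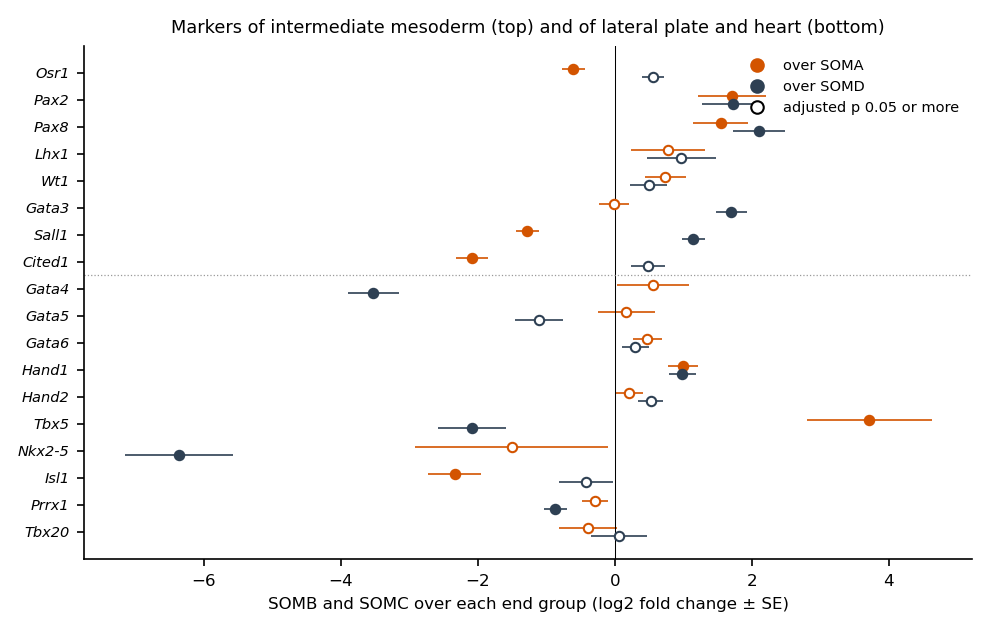
Log2 fold change ± SE of the middle groups over SOMA (orange) and over SOMD (dark), for the 8 intermediate mesoderm markers above the dotted line and the 10 lateral plate and heart markers under it; filled points have an edgeR adjusted p under 0.05. Pax2, Pax8 and Hand1 have both points filled and right of 0, while Isl1 and Prrx1 pass against 1 end each.

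Some of the 12 peaks with the largest margin over the ends encode proteins of the cell surface or matrix, the group given here. The share of such genes among all peaks or all genes tested was not counted. Slitrk6 (chr14:110747338-110755204), a leucine-rich repeat membrane protein known from neurite growth, had 28.4, 29.97, 22.1 and 37.1 CPM in SOMB and 38.03, 19.7, 31.6 and 39.6 CPM in SOMC, against 5.18, 5.598 and 9.73 CPM in SOMA and 16.1, 9.73, 10.5 and 17.6 CPM in SOMD. No middle library overlapped the ends, and the contrast was 1.68 ± 0.19 (edgeR adjusted p = 8.79e-05). Itga3 (chr11:95044475-95076844), the alpha subunit of a laminin-binding integrin, had 72.2, 61.2, 89.5 and 63.7 CPM in SOMB and 75.04, 76.4, 56.6 and 70.3 CPM in SOMC, against 30.6, 52.03 and 35.6 CPM in SOMA and 29.04, 45.9, 26.6 and 27.1 CPM in SOMD. The groups did not overlap, with the highest SOMD library, SOMD2, well above the other SOMD libraries. The contrast was 0.997 ± 0.14 (edgeR adjusted p = 0.000448), and 0.80 (adjusted p = 0.0965) in the 9 libraries with the lower share of reads in no feature. Postn (chr3:54359267-54391041), the matrix protein periostin, had 102, 59.6, 65.3 and 90.2 CPM in SOMB and 143, 76.6, 66.98 and 147 CPM in SOMC, against 32.2, 18.1 and 15.6 CPM in SOMA and 54.5, 46.2, 33.1 and 55.6 CPM in SOMD. The highest values, in SOMC1 and SOMC4, belong to a nearly identical pair; the contrast was 1.51 ± 0.22 (edgeR adjusted p = 0.000456).

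Gpr50, an orphan receptor related to the melatonin receptors, had 26.8 ± 4.44 CPM in SOMB and 41.1 ± 11.5 CPM in SOMC, against 5.94 ± 0.584 CPM in SOMA and 15.2 ± 2.695 CPM in SOMD. It was the most uneven between the ends of this group, with a middle difference of 2.49 ± 0.21 from SOMA and 1.12 ± 0.17 from SOMD, and its libraries did not overlap. Tinagl1, a secreted matrix-associated protein, had 8.38 ± 1.404 CPM in SOMB and 9.27 ± 1.56 CPM in SOMC, against 4.55 ± 0.465 CPM in SOMA and 4.35 ± 0.696 CPM in SOMD, a contrast of 0.99 ± 0.12 (edgeR adjusted p = 0.00017) and no overlap. Thsd7a, a thrombospondin-repeat protein, had 6.65 ± 2.26 CPM in SOMB and 6.88 ± 1.08 CPM in SOMC, against 2.94 ± 0.533 CPM in SOMA and 3.41 ± 0.486 CPM in SOMD and a contrast of 1.09 ± 0.17 (edgeR adjusted p = 0.00106), with SOMB2 inside the range of the ends. All of these passed against both ends.

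**Figure D3:**
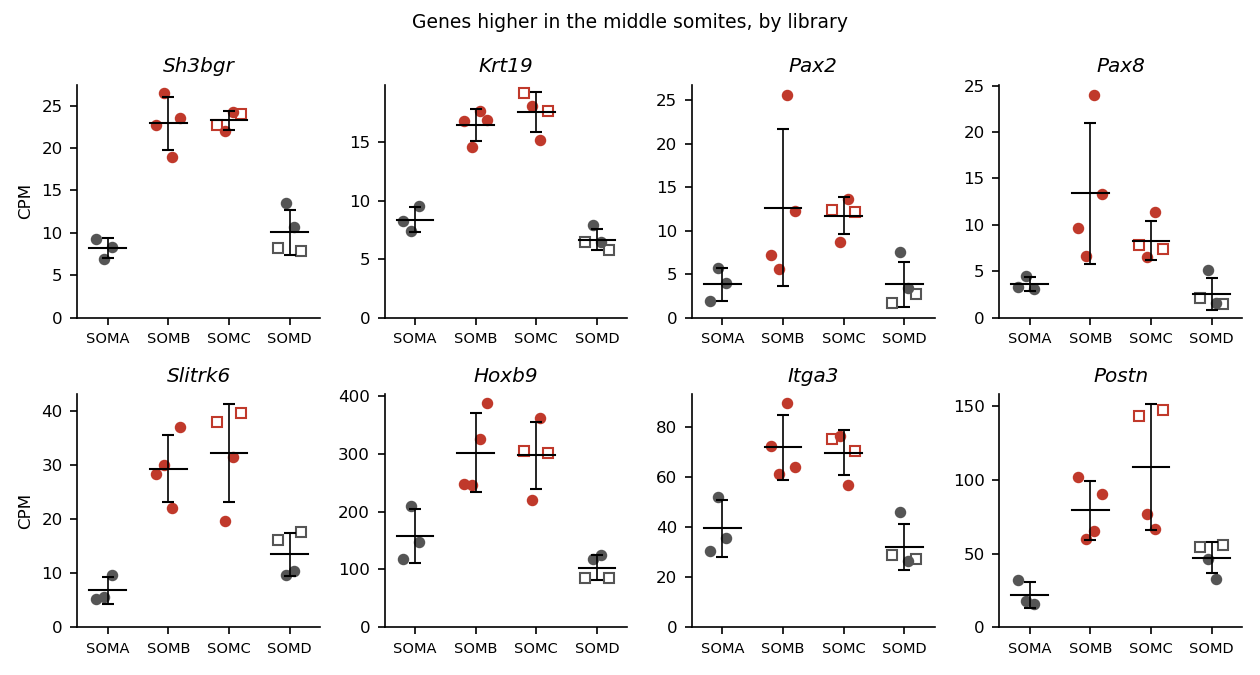
CPM in each library (points) with the group mean and SD (black) for 8 peaks; red marks the middle groups SOMB and SOMC, grey the ends, and open squares the nearly identical pairs SOMC1 with SOMC4 and SOMD1 with SOMD4. The middle stands above both ends in Sh3bgr and Krt19 with no overlap, while SOMB spreads widely in Pax2 and Pax8.

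Factors of sclerotome and formed somites gave both peaks and other patterns. Of 9 sclerotome factors tested, 2 were peaks (22.2%, against 2.23% of all genes), Uncx among them, and none was a dip (edgeR; 2 and 0 at an unadjusted p under 0.05, 2 and 0 in DESeq2); 4 more passed the contrast without the shape. Uncx (chr5:139543865-139548179), a homeobox factor of the posterior part of each somite, had 38.6, 36.6, 57.7 and 42.5 CPM in SOMB and 40.3, 52.96, 35.8 and 35.04 CPM in SOMC, against 19.1, 12.6 and 10.2 CPM in SOMA and 30.02, 37.5, 26.96 and 25.3 CPM in SOMD. Its contrast was 1.04 ± 0.15 (edgeR adjusted p = 0.000448); the difference was 1.58 ± 0.21 from SOMA, and 0.51 ± 0.17 from SOMD did not pass (adjusted p = 0.0949).

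Pax1, Nkx3-2, Sox9, Meox2 and Myf5 show the other pattern behind a positive contrast, a low SOMA with SOMD as high as the middle or higher. Pax1 had a middle difference of 4.51 ± 0.50 from SOMA and -0.30 ± 0.31 from SOMD (adjusted p = 0.658). Sox9, a factor of cartilage precursors, averaged 26.97 ± 11.4 CPM in SOMB and 42.4 ± 8.85 CPM in SOMC, against 6.71 ± 2.83 CPM in SOMA and 49.3 ± 8.58 CPM in SOMD. Nkx3-2, which follows Pax1 in sclerotome, was lower in the middle than in SOMD by -1.36 ± 0.20 (adjusted p = 0.000467) and higher in SOMC than in SOMB by 1.40 ± 0.25 (adjusted p = 0.0172). Meox2 had a difference of 1.83 ± 0.18 from SOMA and -0.37 ± 0.14 from SOMD (adjusted p = 0.148). Myf5, the first myogenic factor, had 5.16 ± 1.99 CPM in SOMB and 6.32 ± 1.52 CPM in SOMC, against 0.515 ± 0.494 CPM in SOMA and 6.102 ± 0.667 CPM in SOMD. Pax9, Tbx18, Meox1, Tcf15, Pax3 and Aldh1a2 did not pass the contrast, with adjusted p-values of 0.0824, 0.885, 0.566, 0.989, 0.546 and 0.942 in that order. In the paired fit Pax9 (0.896, adjusted p = 0.000109), Meox1 (0.169, adjusted p = 0.0382) and Pax3 (0.266, adjusted p = 0.0477) passed it, without the shape of a peak. Of the named genes, 7 uncalled ones passed in that fit, and 5 with the nearly identical libraries summed. Whether Meox1 and Pax3 are among those 5 is not reported here. In an edgeR fit with sets of libraries from an earlier analysis of these same data as a term, Pax9 passed (adjusted p = 8.7e-05). Meox1 and Pax3 did not pass in that fit (adjusted p = 0.126 and 0.249). The Tbx18 level shows how a contrast near 0 can hide 2 differences: it was higher in the middle than in SOMA by 0.83 ± 0.21 (adjusted p = 0.0111) and differed from SOMD by -0.67 ± 0.17 (adjusted p = 0.0224).

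Hedgehog signals from the notochord and floor plate induce sclerotome. Of 6 targets tested, Ccnd1 and Hsd11b2 were peaks (33.3%, against 2.23% of all genes; 4 in the paired fit), and all 6 had a positive contrast with a median of 0.34. Neither peak passed against both ends. Hsd11b2, an enzyme that inactivates glucocorticoids, had a difference of 0.85 ± 0.10 from SOMA and 0.13 ± 0.08 from SOMD (adjusted p = 0.459). Ccnd1, a cyclin of the G1 phase, had 0.28 ± 0.06 from SOMD and 0.12 ± 0.07 from SOMA (adjusted p = 0.292), and lost its call when the nearly identical libraries were summed. The canonical targets Gli1 and Ptch1 did not pass (edgeR adjusted p = 0.304 and 0.201), but both passed in the paired fit, Gli1 at 0.42 (adjusted p = 0.000625) without the shape of a peak and Ptch1 at 0.397 (adjusted p = 4.03e-05) as a peak. With the library sets as a term, the edgeR adjusted p was 0.00306 for Gli1 and 7.57e-05 for Ptch1. Those sets rest on these same libraries, so that fit is no separate support. Gli1, the pathway's transcriptional activator, averaged 86.9 ± 16.8 CPM in SOMB and 98.98 ± 15.5 CPM in SOMC, against 58.02 ± 27.6 CPM in SOMA and 90.4 ± 17.9 CPM in SOMD, and Ptch1, its receptor, 194 ± 45.9 CPM in SOMB and 206 ± 33.98 CPM in SOMC, against 151 ± 10.2 CPM in SOMA and 169.5 ± 44.02 CPM in SOMD. Gas1, a co-receptor that strengthens the response to Hedgehog ligands, was a peak with 259, 237, 222 and 239 CPM in SOMB and 285, 209.5, 209 and 285 CPM in SOMC, against 169, 99.8 and 118 CPM in SOMA and 192, 189, 166 and 193 CPM in SOMD. No middle library overlapped the ends; the contrast was 0.65 ± 0.10 (edgeR adjusted p = 0.0011), with a difference of 0.39 ± 0.12 from SOMD (adjusted p = 0.0655). Sox6, a cartilage factor, was the called member of 7 tendon and cartilage genes (2 called in the paired fit), with 51.2 ± 6.27 CPM in SOMB and 50.2 ± 6.51 CPM in SOMC, against 39.3 ± 2.17 CPM in SOMA and 32.5 ± 3.16 CPM in SOMD and a contrast of 0.51 ± 0.08 (edgeR adjusted p = 0.00085), past the threshold against both ends.

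The Hox genes divided by paralogue group. Of 15 genes of groups 1 to 5, which mark the most anterior levels, 5 were dips (33.3%, against 1.92% of all genes) and none a peak in edgeR. There were 7 and 0 at an unadjusted p under 0.05, 5 and 0 in DESeq2, and 8 and 0 in the paired fit. All 15 contrasts were negative, with a median of -0.37. Of 8 genes of groups 6 to 8, 3 were peaks (37.5%, against 2.23% of all genes) and none a dip, with a median of 0.24. There were 3 and 1 at an unadjusted p under 0.05, and 3 and 1 in DESeq2 and in the paired fit. Of 13 genes of groups 9 to 13, Hoxb9 was a peak (7.69%) and Hoxd9 and Hoxd10 were dips (15.4%), with a median of -0.85. There were 1 and 2 at an unadjusted p under 0.05 and in the paired fit, and 1 and 1 in DESeq2. Genes of 1 cluster lie side by side and are not independent.

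Hoxb9 (chr11:96271330-96276595) had 247, 245, 326 and 387 CPM in SOMB and 305, 219.6, 361 and 301 CPM in SOMC, against 118, 209 and 147 CPM in SOMA and 84.95, 118, 125 and 84.8 CPM in SOMD. The groups did not overlap, though SOMA3 came within a short distance of the lowest SOMC library. The contrast was 1.23 ± 0.15 (edgeR adjusted p = 0.000142). Hoxc8 (chr15:102990539-102994275) had 71.2, 59.04, 54.1 and 95.01 CPM in SOMB and 103, 60.4, 84.9 and 110.2 CPM in SOMC, against 32.1, 67.03 and 52.6 CPM in SOMA and 17.9, 23.2, 18.8 and 17.7 CPM in SOMD. SOMA overlapped the middle and SOMD lay below every other library; the difference was 2.04 ± 0.22 from SOMD, and 0.66 ± 0.22 from SOMA did not pass (adjusted p = 0.0602). Hoxb8 was a peak past both ends, with 76.01 ± 10.98 CPM in SOMB and 94.1 ± 12.4 CPM in SOMC, against 53.3 ± 9.56 CPM in SOMA and 58.2 ± 6.92 CPM in SOMD. Hoxa7 was a peak by its SOMD level, with a difference of 0.90 ± 0.16 from SOMD and 0.13 ± 0.17 from SOMA (adjusted p = 0.737).

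Among the anterior genes Hoxa2 alone passed against both ends, with 20.8, 17.7, 19.3 and 18.1 CPM in SOMB and 19.3, 18.98, 18.0 and 20.8 CPM in SOMC, against 24.3, 24.7 and 21.96 CPM in SOMA and 24.5, 25.5, 21.8 and 25.02 CPM in SOMD. Its 8 middle libraries all lay below its 7 end libraries, by a contrast of -0.32 ± 0.06 (edgeR adjusted p = 0.00249). Hoxb1 was a dip by its SOMA level, with 21.5 ± 3.399 CPM in SOMB and 20.3 ± 3.81 CPM in SOMC, against 64.1 ± 8.05 CPM in SOMA and 21.7 ± 7.37 CPM in SOMD, and did not differ past the threshold from SOMD (-0.04 ± 0.17; adjusted p = 0.933). Hoxd3 and Hoxb4 were dips by 1 end each: Hoxd3 passed against SOMA (-0.88 ± 0.15) and Hoxb4 against SOMD (-0.64 ± 0.13). Hoxb2 passed against SOMD (-0.25 ± 0.06). Hoxd9 had 48.7, 49.5, 27.99 and 36.99 CPM in SOMB and 38.03, 19.8, 25.8 and 35.4 CPM in SOMC, against 54.6, 73.6 and 71.3 CPM in SOMA and 83.2, 26.4, 49.6 and 79.8 CPM in SOMD. The SOMD libraries split, with SOMD1 and SOMD4 above every other SOM library and SOMD2 inside the range of the middle. The contrast was -0.85 ± 0.22 (edgeR adjusted p = 0.024). Hoxd10 varied even more within groups, with 27.4, 21.6, 5.97 and 4.78 CPM in SOMB and 7.31, 0.316, 0.565 and 9.24 CPM in SOMC, against 66.5, 41.3 and 50.2 CPM in SOMA and 28.1, 3.53, 9.34 and 27.04 CPM in SOMD. SOMB1, SOMB2, SOMC1, SOMC4, SOMD1 and SOMD4 were the high libraries of their groups. The contrast was -1.84 ± 0.52 (edgeR adjusted p = 0.0479). Hoxd10 missed the threshold in 11 of 15 fits with 1 library left out. Hoxa7, Hoxd9 and Hoxd10 lost their calls when the nearly identical libraries were summed.

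**Figure D4:**
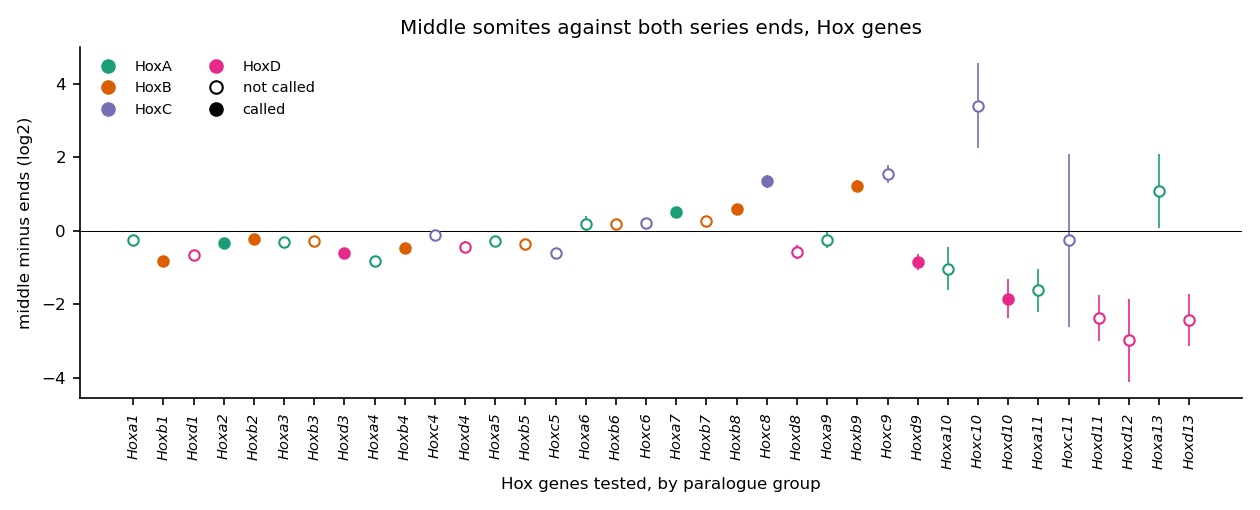
Contrast of the middle somites against both ends (log2 ± SE) for every Hox gene tested, ordered by paralogue group and coloured by cluster; filled points are called. Values lie below 0 for groups 1 to 5, mostly above 0 for groups 6 to 8, and on both sides of 0 with wide errors for groups 9 to 13.

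Promoters of the called genes were searched on both strands, over 250 bases before to 50 after the RefSeq start (GRCm38.p6), for the motifs GACCACCCA (Gli), TCACACCT (T-box), CCATTAA (homeobox) and TGATTGAT (Hox with Pbx), none of which contains another. The shorter motifs AGGTCA (nuclear receptors) and CACGTG (E-box), held by 14.4% and 11.7% of all these promoters, were counted only. A promoter was held for 43 of the 65 named called genes, and Hoxa2 and Hoxd9 are shown as examples that hold such a match. Whether others of these genes hold one is not reported here. Capitals mark the match, which in both lies on the strand opposite to the one printed. The first is chr6:52164782-52165081 on the minus strand and holds the Hox with Pbx motif. The second is chr2:74697513-74697812 on the plus strand and holds the T-box motif.
Hoxa2: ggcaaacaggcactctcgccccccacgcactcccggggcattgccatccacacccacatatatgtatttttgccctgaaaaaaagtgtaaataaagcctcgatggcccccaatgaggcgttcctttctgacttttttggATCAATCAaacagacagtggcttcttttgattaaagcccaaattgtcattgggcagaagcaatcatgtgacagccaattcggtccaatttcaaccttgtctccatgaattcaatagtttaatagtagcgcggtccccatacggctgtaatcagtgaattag
Hoxd9: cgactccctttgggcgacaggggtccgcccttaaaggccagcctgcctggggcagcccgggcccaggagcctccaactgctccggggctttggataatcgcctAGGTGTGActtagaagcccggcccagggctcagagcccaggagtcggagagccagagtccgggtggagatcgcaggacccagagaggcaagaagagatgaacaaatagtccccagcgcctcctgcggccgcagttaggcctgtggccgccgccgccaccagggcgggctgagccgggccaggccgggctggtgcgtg
Over all 10810 tested genes with a promoter, 0.259% held the Gli, 1.05% the T-box, 1.58% the homeobox and 0.509% the Hox with Pbx motif. A comparison of these shares with the called genes is void, since only 215 of 308 peaks and 197 of 265 dips had a promoter. A match is a description of letters, not a binding site.

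Genes that FGF signalling switches on, many of which feed back on the pathway, gave dips. Of 10 tested, 6 were dips and none a peak (edgeR; 6 and 0 at an unadjusted p under 0.05, 6 and 0 in DESeq2), against 1.92% dips among all genes. All 10 contrasts were negative, with a median of -0.54, and the 4 uncalled ones ran from -0.70 to -0.10. Spry4, an inhibitor of receptor tyrosine kinase signalling that FGF induces, had 9.92, 7.19, 6.58 and 4.63 CPM in SOMB and 7.06, 4.75, 3.76 and 6.62 CPM in SOMC, against 21.8, 25.2 and 24.2 CPM in SOMA and 19.9, 5.42, 12.3 and 21.9 CPM in SOMD. SOMD2 lay inside the middle range and the other end libraries above it. The highest SOMD values, in SOMD1 and SOMD4, belong to a nearly identical pair, and the difference from SOMD with that pair summed is not reported here. The contrast was -1.58 ± 0.24 (edgeR adjusted p = 0.000752), with -1.90 ± 0.29 from SOMA and -1.26 ± 0.27 from SOMD, both past the threshold. Spry2, a gene of the same family, had 24.6, 16.4, 24.1 and 19.4 CPM in SOMB and 18.4, 21.8, 19.2 and 18.7 CPM in SOMC, against 45.1, 42.9 and 41.05 CPM in SOMA and 28.6, 24.97, 24.6 and 29.6 CPM in SOMD. SOMB1 lay between the SOMD libraries and SOMA above all others. The contrast was -0.75 ± 0.08 (edgeR adjusted p = 7.31e-05), with -1.08 ± 0.10 from SOMA and -0.41 ± 0.10 from SOMD, again both past the threshold.

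The other 4 dips of this list passed against SOMA but not against SOMD. Il17rd, a membrane antagonist of FGF receptor signalling, had 73.6, 50.8, 70.7 and 61.4 CPM in SOMB and 59.1, 48.7, 39.5 and 56.03 CPM in SOMC, against 136, 179 and 159 CPM in SOMA and 114, 49.0, 67.5 and 115 CPM in SOMD. Its SOMD value was high in SOMD1 and SOMD4 and inside the middle range in SOMD2 and SOMD3; the difference was -1.47 ± 0.20 from SOMA and -0.61 ± 0.19 from SOMD (adjusted p = 0.0638). Etv5, an ETS factor induced by FGF, had a difference of -1.11 ± 0.16 from SOMA and -0.26 ± 0.15 from SOMD (adjusted p = 0.372). Dusp6, a phosphatase of ERK, had -0.55 ± 0.11 and -0.25 ± 0.11 (adjusted p = 0.186) for the same differences. Fgfr1, the receptor of paraxial mesoderm, had -0.43 ± 0.09 and -0.08 ± 0.08 (adjusted p = 0.647). Fgf8, a ligand of the tail bud and presomitic mesoderm, was a dip only through its SOMA level, with 1.94, 1.67, 2.01 and 2.42 CPM in SOMB and 1.89, 2.02, 2.76 and 1.38 CPM in SOMC, against 4.06, 11.6 and 13.2 CPM in SOMA and 1.64, 3.36, 2.26 and 1.16 CPM in SOMD. SOMD lay at the level of the middle. The difference was -2.25 ± 0.31 from SOMA and -0.01 ± 0.34 from SOMD (adjusted p = 0.99). Fgf8 was the called member of 18 presomitic mesoderm and tail bud genes, of which 10 more passed the contrast without the shape. Etv5, Dusp6 and Fgfr1, like Hoxb2, Hoxb4, Fdft1, Lss, Epha1 and Fmod, fall outside the naming rule and were named after their values were seen, to complete the counts.

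**Figure D5:**
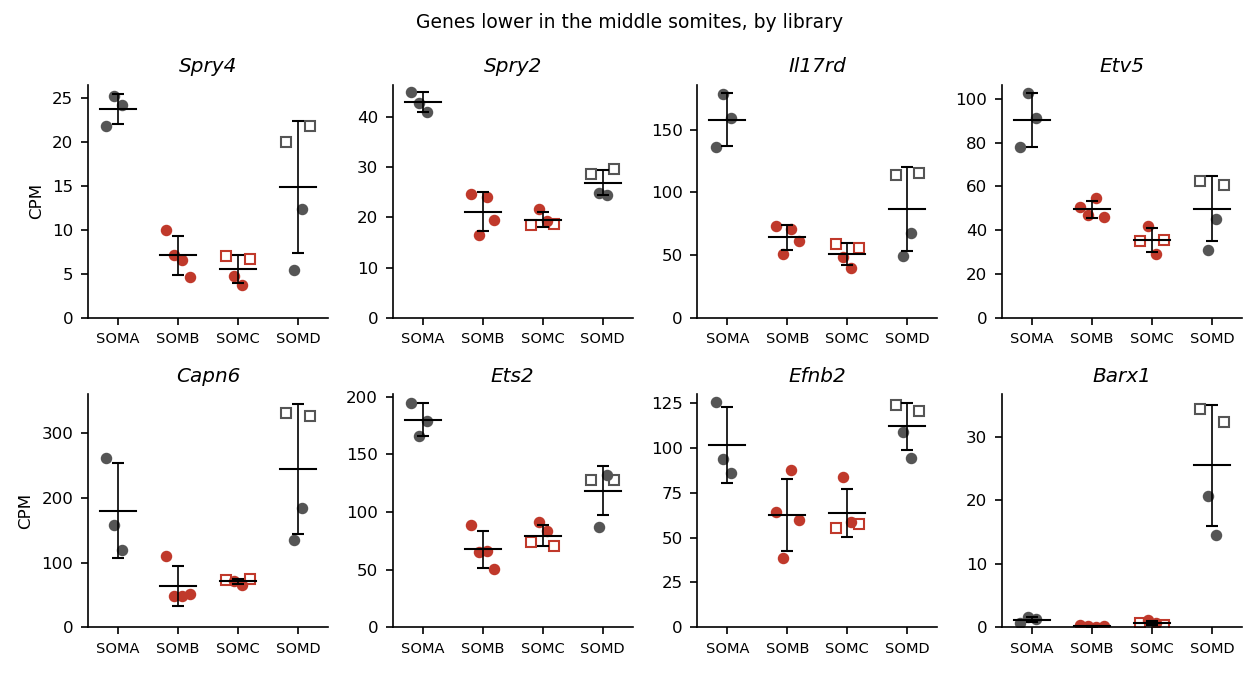
CPM in each library (points) with the group mean and SD (black) for 8 dips; red marks the middle groups, grey the ends, and open squares the nearly identical pairs. SOMA is uniformly high in Spry4, Spry2, Il17rd and Etv5, while the SOMD level is highest in SOMD1 and SOMD4; Barx1 is high in SOMD only.

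The dips with the widest margins included several genes outside these lists. Capn6 (chrX:143802236-143827412), a calpain without protease activity that binds microtubules, had 110.3, 47.9, 47.9 and 51.2 CPM in SOMB and 72.4, 71.6, 65.98 and 74.4 CPM in SOMC, against 262, 158 and 120.1 CPM in SOMA and 331, 134, 185 and 326 CPM in SOMD. Every middle library lay below every end library, with SOMB1 well above the other SOMB libraries. The contrast was -1.63 ± 0.23 (edgeR adjusted p = 0.00048), and -1.36 (adjusted p = 9.08e-04) in the 9 libraries with the lower share of reads in no feature. Ets2 (chr16:95702407-95721049), an ETS factor acted on by ERK, had 89.1, 65.1, 65.9 and 50.8 CPM in SOMB and 74.03, 90.9, 83.1 and 70.2 CPM in SOMC, against 195, 166 and 178 CPM in SOMA and 128, 86.97, 132 and 128 CPM in SOMD. SOMD2 was the only end library inside the middle range, and the contrast was -0.99 ± 0.11 (edgeR adjusted p = 7.31e-05). Barx1 (chr13:48663036-48666507), a homeobox factor of stomach and pharyngeal arch mesenchyme, had 0.309, 0.163, 0.134 and 0.214 CPM in SOMB and 0.629, 1.14, 0.6899 and 0.328 CPM in SOMC, against 0.736, 1.58 and 1.35 CPM in SOMA and 34.3, 20.7, 14.5 and 32.4 CPM in SOMD. Its dip was shallow against SOMA (-1.62 ± 0.43; adjusted p = 0.0176), where levels were near 1 CPM, and deep against SOMD (-6.08 ± 0.29; adjusted p = 1.17e-08). Barx1 met the naming rule's mean of at least 5 CPM only through its SOMD libraries.

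Fam101a, an actin-associated protein also called refilin A, had 3.35 ± 0.801 CPM in SOMB and 4.08 ± 0.676 CPM in SOMC, against 8.29 ± 0.576 CPM in SOMA and 6.56 ± 0.9802 CPM in SOMD, a contrast of -0.99 ± 0.13 (edgeR adjusted p = 0.000184) and no overlap between middle and ends. Rbm24, an RNA-binding splicing factor of muscle, had 3.67 ± 0.791 CPM in SOMB and 3.81 ± 1.27 CPM in SOMC, against 8.04 ± 1.31 CPM in SOMA and 6.45 ± 2.64 CPM in SOMD and passed against SOMA (-1.11 ± 0.25) but not SOMD (-0.79 ± 0.24; adjusted p = 0.0559). Lhfp, a tetraspan membrane protein, had 11.96 ± 2.15 CPM in SOMB and 12.6 ± 1.96 CPM in SOMC, against 18.96 ± 2.95 CPM in SOMA and 19.4 ± 5.82 CPM in SOMD and a contrast of -0.64 ± 0.14 (edgeR adjusted p = 0.0115). 2010111I01Rik, which RefSeq lists as Aopep, an aminopeptidase, had 4.67 ± 1.24 CPM in SOMB and 4.42 ± 0.652 CPM in SOMC, against 7.1005 ± 1.298 CPM in SOMA and 6.68 ± 0.665 CPM in SOMD, a contrast of -0.60 ± 0.14 (edgeR adjusted p = 0.0135) and no overlap.

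Wnt genes went both ways. Of 16 ligands and targets tested, Notum, Sfrp2 and Ccnd1 were peaks and Dkk1 a dip. Dkk1 (chr19:30545876-30549496), a secreted Wnt inhibitor and target, had 2.07, 1.59, 1.68 and 1.85 CPM in SOMB and 1.65, 1.46, 2.51 and 2.07 CPM in SOMC, against 7.57, 13.6 and 17.7 CPM in SOMA and 7.39, 2.15, 2.64 and 6.68 CPM in SOMD. The middle was low throughout, SOMD2 lay inside its range, and SOMD3 lay just above it. The contrast was -2.08 ± 0.26 (edgeR adjusted p = 0.000184), past the threshold against both ends. The high SOMD values, in SOMD1 and SOMD4, belong to a nearly identical pair. The difference from SOMD with that pair summed is not reported here. Apcdd1, a membrane inhibitor of Wnt signalling named for its margin, was a dip with 40.7 ± 9.08 CPM in SOMB and 38.7 ± 3.26 CPM in SOMC, against 72.6 ± 11.3 CPM in SOMA and 63.96 ± 15.6 CPM in SOMD and a contrast of -0.78 ± 0.13 (edgeR adjusted p = 0.00134). Notum, an enzyme that inactivates Wnt ligands, was a peak with 12.3 ± 3.09 CPM in SOMB and 20.4 ± 1.103 CPM in SOMC, against 7.701 ± 3.45 CPM in SOMA and 10.3 ± 1.801 CPM in SOMD. It passed against SOMA (1.07 ± 0.23) but not SOMD (0.62 ± 0.20; adjusted p = 0.0711). Sfrp2, a secreted Wnt binder, was a small peak past both ends with no overlap, at 71.1, 73.8, 74.2 and 72.3 CPM in SOMB and 69.2, 66.8, 78.5 and 72.5 CPM in SOMC, against 59.4, 51.3 and 54.8 CPM in SOMA and 58.1, 63.3, 63.3 and 59.3 CPM in SOMD. Of 20 genes in the ligand, antagonist and target lists of BMP, Grem1 and Bambi were dips and none was a peak (edgeR; 3 dips and 3 peaks at an unadjusted p under 0.05, 2 and 2 in DESeq2, 3 and 4 in the paired fit). Grem1, a secreted BMP antagonist, had 8.95 ± 1.81 CPM in SOMB and 6.2996 ± 2.52 CPM in SOMC, against 18.2 ± 1.85 CPM in SOMA and 10.8 ± 1.26 CPM in SOMD, and Bambi, a decoy receptor, 36.2 ± 4.95 CPM in SOMB and 44.9 ± 4.99 CPM in SOMC, against 56.9 ± 3.81 CPM in SOMA and 50.1 ± 4.18 CPM in SOMD. Rdh10, the dehydrogenase that makes retinal for retinoic acid, was the called member of 14 genes of that pathway (2 dips besides in the paired fit), a peak at 57.6 ± 10.2 CPM in SOMB and 62.001 ± 8.35 CPM in SOMC, against 27.9 ± 7.99 CPM in SOMA and 45.1 ± 5.98 CPM in SOMD that passed against SOMA (1.09 ± 0.16) but not SOMD (0.41 ± 0.14; adjusted p = 0.103).

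Among contact and guidance molecules, Eph and ephrin genes gave dips and semaphorin genes peaks. Of 17 Eph receptors and ephrins, which set up boundaries between cell groups such as somites, 5 were dips (29.4%, against 1.92% of all genes) and none a peak in edgeR. There were 5 and 0 at an unadjusted p under 0.05 and 5 and 0 in DESeq2, while the list median was -0.06. Efnb2, a ligand of the posterior part of somites, had 64.3, 38.5, 87.8 and 59.7 CPM in SOMB and 55.5, 83.8, 58.6 and 57.8 CPM in SOMC, against 125, 93.4 and 85.7 CPM in SOMA and 124, 109, 94.4 and 120.5 CPM in SOMD. SOMB3 overlapped the ends. The contrast was -0.76 ± 0.15 (edgeR adjusted p = 0.00474), past the threshold against both ends. Epha4, a receptor of somite boundaries, had 64.4 ± 12.03 CPM in SOMB and 67.5 ± 9.31 CPM in SOMC, against 127 ± 13.5 CPM in SOMA and 84.01 ± 11.1 CPM in SOMD, a difference of -0.94 ± 0.12 from SOMA and -0.35 ± 0.12 from SOMD (adjusted p = 0.084). Ephb1, Ephb4 and Epha1 passed against SOMA and not SOMD, with contrasts of -1.05 ± 0.22, -0.30 ± 0.05 and -1.04 ± 0.21.

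Of 12 semaphorins and receptors, Sema3b, Sema3c and Nrp2 were peaks (25.0%, against 2.23% of all genes) and none was a dip in edgeR. There were 3 and 0 at an unadjusted p under 0.05 and 3 and 0 in DESeq2, with a list median of 0.20. Sema3c, a secreted ligand, had 43.98 ± 5.48 CPM in SOMB and 30.4 ± 4.33 CPM in SOMC, against 28.7 ± 2.94 CPM in SOMA and 19.8 ± 1.56 CPM in SOMD; it was lower in SOMC than in SOMB by -0.53 ± 0.11 (adjusted p = 0.04) and passed against both ends. Sema3b, another ligand, passed against both ends with 8.56 ± 1.42 CPM in SOMB and 8.17 ± 0.907 CPM in SOMC, against 5.43 ± 1.16 CPM in SOMA and 5.67 ± 1.43 CPM in SOMD and lost the call when the nearly identical libraries were summed. Nrp2, a co-receptor, had 284 ± 42.9 CPM in SOMB and 307 ± 43.6 CPM in SOMC, against 143 ± 3.49 CPM in SOMA and 270.4 ± 43.4 CPM in SOMD and passed against SOMA (1.04 ± 0.13) only. Of 15 cadherin and polarity genes, Cdh3, Snai2 and Twist2 were peaks (1 dip besides in the paired fit). Twist2, a bHLH factor of mesenchyme, had 34.7 ± 3.45 CPM in SOMB and 33.5 ± 5.71 CPM in SOMC, against 21.9 ± 3.49 CPM in SOMA and 25.2 ± 3.02 CPM in SOMD with no overlap and passed against both ends. Snai2, a repressor of epithelial genes, had 29.1 ± 4.77 CPM in SOMB and 36.3 ± 5.97 CPM in SOMC, against 14.6 ± 0.848 CPM in SOMA and 28.9 ± 2.44 CPM in SOMD, with SOMD about as high as SOMB. Cdh3, the epithelial P-cadherin, had 80.1 ± 8.17 CPM in SOMB and 87.9 ± 14.3 CPM in SOMC, against 56.4 ± 5.47 CPM in SOMA and 64.8 ± 11.2 CPM in SOMD. Of 18 matrix genes, Dcn and Fmod, small proteoglycans of connective tissue, were peaks, and Lama1 and Vcan were dips (5 peaks and 2 dips in the paired fit). Dcn had a difference of 3.01 ± 0.31 from SOMA and 0.57 ± 0.22 from SOMD (adjusted p = 0.15). Fmod had 2.85 ± 0.47 and 0.92 ± 0.35 (adjusted p = 0.144) for the same differences. Vcan, a large proteoglycan that hinders cell migration, had 405, 297, 396 and 373 CPM in SOMB and 447, 458, 389 and 461 CPM in SOMC, against 534, 508 and 466 CPM in SOMA and 662, 694, 571 and 685 CPM in SOMD. No library overlapped, and it passed against both ends. Lama1, a laminin chain of basement membranes, had 104 ± 18.96 CPM in SOMB and 117 ± 15.3 CPM in SOMC, against 227 ± 28.8 CPM in SOMA and 128 ± 13.2 CPM in SOMD and passed against SOMA only.

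Genes of cholesterol synthesis had negative contrasts throughout, and their called members passed against SOMA but not SOMD. Of 20 tested, 5 were dips (25.0%, against 1.92% of all genes) and none a peak in edgeR. There were 8 and 0 at an unadjusted p under 0.05 and 6 and 0 in DESeq2, with 9 dips in the paired fit. All 20 contrasts were negative, and the median was -0.38. Hmgcs1, which makes HMG-CoA, had 193, 199.9, 196 and 214 CPM in SOMB and 146, 172, 146 and 159 CPM in SOMC, against 261, 337 and 317 CPM in SOMA and 222, 213, 176 and 235 CPM in SOMD. SOMB and SOMD overlapped; the difference was -0.78 ± 0.09 from SOMA and -0.26 ± 0.08 from SOMD (adjusted p = 0.0605). Fdft1, a squalene synthase, had a contrast of -0.45 ± 0.10, Lss, a cyclase, -0.45 ± 0.11, and Insig1, which retains the pathway's regulator in the membrane, -0.51 ± 0.10.

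No gene was called in the lists of dermomyotome (9 tested), myotome (7), Notch effectors (10), cell cycle (19), cyclin-dependent kinase inhibitors and p53 targets (11), immediate early genes (15), and hypoxia and glycolysis (16). In edgeR at an unadjusted p under 0.05, Notch effectors had 1 peak and 1 dip, the inhibitors and p53 targets 2 peaks, immediate early genes 1 peak, and the other 4 lists none. DESeq2 called 1 dip among Notch effectors and 1 peak among immediate early genes. The paired fit called 1 peak and 2 dips among Notch effectors, 2 peaks among the inhibitors and p53 targets, 3 peaks among immediate early genes, 1 dip each in cell cycle and in hypoxia and glycolysis, and none in dermomyotome and myotome. The contrasts of the 19 cell cycle genes ran from -0.05 to 0.11.

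Among markers of further cell types, Olig2, Nkx6-1 and Ngfr were called. Of 11 neural tube markers, Olig2 and Nkx6-1, factors of ventral progenitors, were peaks (18.2%, against 2.23% of all genes) and none was a dip in edgeR. There were 4 peaks and 0 dips at an unadjusted p under 0.05, 3 and 0 in DESeq2, and 5 peaks in the paired fit. The list median was 0.61, with 9 positive and 2 negative contrasts. Olig2 had 7.59, 15.1, 3.42 and 5.84 CPM in SOMB and 8.08, 4.24, 7.71 and 8.84 CPM in SOMC, against 2.52, 2.73 and 2.02 CPM in SOMA and 3.66, 2.84, 7.15 and 3.67 CPM in SOMD. SOMB2 was the highest library, SOMD1, SOMD3 and SOMD4 lay inside the middle range, and the call was lost when the nearly identical libraries were summed. Nkx6-1 had 5.21 ± 1.57 CPM in SOMB and 4.86 ± 0.953 CPM in SOMC, against 1.796 ± 0.712 CPM in SOMA and 3.82 ± 0.686 CPM in SOMD. The summed neural tube level was 44.4 to 119 CPM in SOMB and 41.6 to 76.0 CPM in SOMC, against 65.4 to 89.9 CPM in SOMA and 34.8 to 75.5 CPM in SOMD. Foxb1 alone held 7.55 to 10.2 CPM of it in SOMB and 5.76 to 6.77 CPM in SOMC, against 28.3 to 38.6 CPM in SOMA and 0.981 to 5.95 CPM in SOMD. Of 7 neural crest markers, Ngfr, a neurotrophin receptor, was a dip at 15.99 ± 2.89 CPM in SOMB and 14.1 ± 1.56 CPM in SOMC, against 21.5 ± 3.22 CPM in SOMA and 23.7 ± 5.37 CPM in SOMD. No marker of endothelium (12 tested), blood (5), endoderm (10) or surface ectoderm (8) was called in edgeR; at an unadjusted p under 0.05 there were 2 peaks in endoderm and 1 in surface ectoderm, and DESeq2 called none. The paired fit called 1 peak each in neural crest, endothelium, endoderm and surface ectoderm, and 1 dip in surface ectoderm. Hba-a1 was at 0 in every library. The part of these cells in the results was not tested.

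The direction of the called genes was also read within each set of libraries that share their reads in no feature. In the 6 libraries with the higher share, all 308 peaks were positive (median 0.58) and all 265 dips negative (median -0.46). In the other 9 libraries, 305 of 305 peaks and 263 of 263 dips with a value kept their sign (medians 0.60 and -0.52). Since the calls rest on the very same data, these signs are a description. With only the 9 libraries in the fit, 88 peaks and 61 dips were called.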

How the data were processed

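Per the labels, RNA was taken up in Trizol and sequenced from TruSeq RNA V2 libraries, an unstranded kit, after 11 rounds of PCR. The deposited values are raw read counts for each gene. HTSeq 0.6, DESeq2 1.10, Cufflinks and TopHat2 2.0.9, with the genome mm10, are the tools in the submitters' processing notes. Neither the annotation nor the strand setting is given, so overlapping genes cannot be told apart. Each file holds 23337 genes and 5 summary rows, which were removed; reads in no feature made 7.57 to 12.8% in the 15 SOM libraries.

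After filterByExpr with a minimum count of 10 and a total of at least 15, libraries were scaled by TMM and fitted over the 4 SOM groups with edgeR 4.0.16 (R 4.3.3) by quasi-likelihood F tests, adjusted by Benjamini-Hochberg over 13790 genes with a threshold of 0.05. The SE is the log2 fold change over the root of F. Groups came from the titles. The contrast, 34 gene lists (404 genes, 401 present and 380 tested) and naming rule were chosen with earlier results of these data known. The rule names the 12 peaks and 12 dips with the largest margin (the gap between the nearest middle and end means) at a mean of at least 5 CPM, up to 3 called members of each list with the lowest p, and 17 anchor genes. Of 80 genes so named, 65 were called; the text gives only part of them, and some called genes that the list counts hold are not reported here. The script's steps were tested on simulated counts. Alternatives were RLE size factors, no scaling, no filter, DESeq2 1.42.0, a replicate block, sets of libraries as a term, reads in no feature as a covariate or a filter, nearly identical libraries summed, all 29 libraries in 1 fit, a strict rule, a shape from log2 means (offset 0.5) and each library left out. The rule of both ends was added after the data were seen, as was a block of the replicate numbers within pairs of groups. Deviations from the group means correlated between same-number libraries at 0.512 to 0.55 in SOMA with SOMB and 0.521 to 0.632 in SOMC with SOMD. In the other pairs of groups they did so for number 1 (0.427 to 0.555) and not for the others (-0.334 to -0.157). The contrast is the mean of SOMB minus SOMA and SOMC minus SOMD, so the numbers pair its samples by the data; the labels do not say why. Gene positions and promoters are RefSeq's for GRCm38.p6. Precision is limited by counting at the depths given and by 3 or 4 libraries a group.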

Additional observations from a re-analysis of the deposited data

Results flagged for a closer look

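Of 240 checks of a group of 4 libraries, 12 had a library far from the other 3, and chance alone flags about 1 in 20 groups of 4 independent libraries. SOMC and SOMD each hold a nearly identical pair, so that rate does not carry over to them. Among the dips, Apcdd1 had 43.6 CPM in SOMC2 against 36.8 to 37.7 CPM in the other SOMC libraries, Efnb2 83.8 against 55.5 to 58.6 CPM, and Ephb1 4.81 against 3.35 to 3.58 CPM in the same comparison. Capn6 had 110.3 CPM in SOMB1 and 47.9 to 51.3 CPM in the other SOMB libraries. Ets2 had 86.97 CPM in SOMD2 and 127.5 to 131.9 CPM in the other SOMD libraries. Among the peaks, SOMD2 stood apart for Itga3 (45.9 CPM, others 26.6 to 29.04 CPM) and Nrp2 (335.3 CPM, others 244.9 to 251.1 CPM), and SOMB2 for Tinagl1 (6.29 CPM, others 8.82 to 9.27 CPM). Among uncalled genes, Gli1 had 75.95 CPM in SOMC3 and 105.0 to 109.6 CPM in the other SOMC libraries, and Hoxb6 had 25.5 CPM in SOMD2 and 33.5 to 34.3 CPM in the other SOMD libraries. Pax3, a factor of dermomyotome, was high in SOMB3 (62.2 CPM, others 49.5 to 51.7 CPM) and in SOMC2 (59.98 CPM, others 31.2 to 31.5 CPM). SOMC2 and SOMD2 hold 4 and 4 of the 12 values.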

How the results depend on the processing

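The counts of 308 peaks and 265 dips stayed within 1.5 times under RLE size factors, no scaling, no filter, DESeq2, reads in no feature as a covariate and a shape from log2 means (271 to 396 peaks, 243 to 341 dips). Each library left out gave 241 to 370 peaks and 190 to 298 dips, the lowest without SOMD4 in both. Other settings moved them: 851 and 747 with the library sets as a term (sets that come from an earlier analysis and not from the labels), 88 and 61 in only the 9 libraries with the lower share of reads in no feature, 195 and 162 with nearly identical libraries summed, 191 and 171 with all 29 libraries in 1 fit, 72 and 55 by the rule of both ends, and 2 and 0 by the strict rule (1 dip and 15 peaks in DESeq2). Chosen after seeing the data, the strict rule with library sets as a term gave 63 and 32, and the rule of both ends gave 394 and 282 with that term and 29 and 16 with the pairs summed. The cause was not tested, except that fewer samples enter the fits of 9 libraries and of summed pairs.

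The replicate block over all 4 groups gave 319 peaks and 268 dips and turned Tcf15 to -0.0301. The block within SOMA with SOMB and within SOMC with SOMD, chosen after seeing the data, gave 853 and 762, and 711 and 606 with the nearly identical libraries summed. The last hold 295 of the 308 peaks and 246 of the 265 dips. Of the 80 named genes, 7 uncalled ones passed the contrast with that block and none lost a call. With the nearly identical libraries summed as well, 5 uncalled ones passed it.

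Of 65 called named genes, 58 passed whichever library was left out. The others had adjusted p-values up to 0.0654 for Ccnd1 and 0.117 for Hoxd10 (both without SOMD4; Hoxd10 failed in 11 of 15), 0.0554 for Fgf8 (without SOMA4), 0.0748 for Hoxa7, 0.0545 for Isl1 and 0.0787 for Prrx1 (all without SOMA1), and 0.0640 for Hoxd9 (without SOMA3). Only uncalled genes near 0 changed sign. With each library left out, Tcf15 ran from -0.0874 to 0.12, Aldh1a2 from -0.21 to 0.16 and Tbx18 from -0.00820 to 0.29; Tcf15 was -0.0371 with reads in no feature as a covariate, and Aldh1a2 0.21 in the 9 libraries. With 3 or 4 libraries a group, a missed threshold does not show equal levels. Leaving out a library of a nearly identical pair keeps its partner in the fit, so these fits do not show how far a result rests on such a pair. With the pairs summed, 8 of the 80 named genes no longer passed the contrast.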

Other observations

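Some other called genes were named after their values were seen; no list was fixed for them, and none of the 7 myotome and muscle regulators tested was called. Tagln, an actin-binding protein of smooth muscle and early mesoderm, was a peak past both ends, with 76.5 ± 21.5 CPM in SOMB and 80.8 ± 12.2 CPM in SOMC, against 29.98 ± 3.605 CPM in SOMA and 54.5 ± 4.76 CPM in SOMD (contrast 0.96 ± 0.12; edgeR adjusted p = 0.000184). Myl9, a smooth muscle myosin light chain, was a peak at 40.1 ± 4.27 CPM in SOMB and 40.6 ± 7.24 CPM in SOMC, against 27.2 ± 2.99 CPM in SOMA and 31.4 ± 2.44 CPM in SOMD (contrast 0.46 ± 0.09; edgeR adjusted p = 0.00355). Mybpc1, a myosin-binding protein of slow muscle, was a peak at 5.504 ± 2.73 CPM in SOMB and 9.04 ± 5.05 CPM in SOMC, against 0.808 ± 0.669 CPM in SOMA and 2.66 ± 0.573 CPM in SOMD, highest in SOMC1 and SOMC4. Myl1, a skeletal myosin light chain, was a dip at 0.335 ± 0.175 CPM in SOMB and 0.378 ± 0.136 CPM in SOMC, against 2.76 ± 0.703 CPM in SOMA and 1.05 ± 0.624 CPM in SOMD (contrast -2.31 ± 0.32; edgeR adjusted p = 0.000342). Msc, a bHLH repressor of muscle precursors, was a dip at 0.2505 ± 0.218 CPM in SOMB and 0.106 ± 0.05798 CPM in SOMC, against 1.38 ± 0.499 CPM in SOMA and 0.882 ± 0.505 CPM in SOMD, with SOMB4 at 0. Of these 5, all passed against both ends with the nearly identical libraries kept apart. Whether they do so with those libraries summed is not reported here.

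Chrna3 and Chrnb4, neighbouring genes of nicotinic receptor subunits, were dips together. Chrna3 had 0.397, 0.286, 0.201 and 0.356 CPM in SOMB and 0.2903, 0.506, 0.376 and 0.255 CPM in SOMC, against 2.31, 1.87 and 2.14 CPM in SOMA and 1.05, 0.603, 0.828 and 0.875 CPM in SOMD, with no overlap between middle and ends (contrast -2.01 ± 0.20; edgeR adjusted p = 2.15e-05). Chrnb4 had 0.925 ± 0.392 CPM in SOMB and 0.664 ± 0.213 CPM in SOMC, against 3.93 ± 0.572 CPM in SOMA and 1.61 ± 0.277 CPM in SOMD (contrast -1.68 ± 0.20; edgeR adjusted p = 0.000126). Hoxc9 passed the contrast without the shape, with 44.6 ± 15.5 CPM in SOMB and 23.7 ± 10.5 CPM in SOMC, against 40.4 ± 7.24 CPM in SOMA and 3.18 ± 0.509 CPM in SOMD. Hoxc10 levels ran downward along the series, which is no peak, despite its large positive contrast of 3.401 ± 1.16 (edgeR adjusted p = 0.106), with 73.9, 76.5, 24.2 and 18.03 CPM in SOMB and 19.6, 1.71, 0.251 and 22.01 CPM in SOMC, against 144, 123 and 154 CPM in SOMA and 0, 0, 0 and 0.06997 CPM in SOMD; the SOMD libraries held at most a few reads, so that the fitted value is no bound.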
